A study of Homo sapiens with 8 samples.

Results

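The genes described here are 42 genes that serve protein import, folding, disposal and stress sensing in the endoplasmic reticulum (ER), taken by name from a table of 20263 genes. They comprise 5 genes of stress sensing (ERN1, its target XBP1, ATF6, ATF6B and EIF2AK3, called sensors here), 18 chaperones and folding enzymes, 9 genes of the translocon and 10 genes of ER-associated degradation. A row was found for each of the 42 genes, and each passed the filter on low values described with the tests below. PANC-1 cells, an established line from a human carcinoma of the pancreatic duct, were exposed for 24 h to 10 μM eupalinolide B (EB), a sesquiterpene lactone of the plant Eupatorium lindleyanum, or to dimethyl sulfoxide (DMSO), the solvent used as control. RNA sequencing was done on 4 libraries per group, which the study's methods call biological replicates, and expression was given in TPM, a transcript level scaled by transcript length and by the total of each library. Both groups were 1 unmodified cell line without any other agent, and the study's methods state that the supernatant was discarded before lysis, so the RNA came from cells left in the dish. In such bulk RNA, fewer cells of 1 kind and less RNA per cell cannot be told apart. The comparison asked how the transcriptome of these cells differed after exposure to EB.

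Proteins bound for secretion or for membranes enter the ER through the SEC61 channel and fold there with the help of chaperones such as BiP, oxidoreductases that form disulfide bonds, and lectins that read N-linked glycans. Chains that do not fold are drawn back to the cytosol and degraded by the proteasome, a route called ER-associated degradation. When unfolded chains build up, the membrane sensors IRE1α (ERN1), PERK (EIF2AK3) and ATF6 start the unfolded protein response, in which cleaved ATF6 and spliced XBP1 raise transcription of chaperone and degradation genes and PERK lowers translation while favouring ATF4.

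The promoters are shown first because DNA elements through which this response is known to act lie in some of them. Genes chosen by name for this response are likely to carry its elements. The shares below are therefore description and not a test. Promoters of 250 bases before to 50 bases after the RefSeq start (GRCh38.p14) were found for 40 of the 42 genes, with DERL1 and PDIA3 unmatched. These were searched on both strands for the ER stress response element ERSE (CCAAT and CCACG with 9 free bases between), ERSE-II (ATTGG and CCACG with 1 free base between), the unfolded protein response element UPRE (TGACGTGG) and the C/EBP-ATF response element CARE (TTGCATCA). ERSE was present in 7 of 40 promoters (17.5%), those of XBP1, HSPA5, HSP90B1, CALR, CANX, CRELD2 and ERO1B, against 22 of 27305 promoters of the whole table (0.0806%). ERSE-II was present in 3 (7.5%), those of SDF2L1, HYOU1 and HERPUD1, against 15 of the whole table (0.0549%). UPRE occurred in 4 (DNAJC10, HYOU1, SEC62 and VCP), against 217 of the whole table (0.795%), and CARE in HERPUD1 alone of the 40, against 252 of the whole table (0.923%). The windows below are printed 5′ to 3′ on the gene's strand, from genes that rose, fell or did not pass the test, with the fixed letters of each element in capitals. In HYOU1 the UPRE overlaps the first of its pair of ERSE-II matches, and in HERPUD1 the first capitals are the CARE and the second the ERSE-II.
HSPA5 (chr9:125241383-125241417, minus strand): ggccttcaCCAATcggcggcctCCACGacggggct
XBP1 (chr22:28800595-28800629, minus strand): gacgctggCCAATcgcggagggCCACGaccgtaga
CALR (chr19:12938376-12938410, plus strand): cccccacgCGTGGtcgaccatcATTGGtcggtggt
ERO1B (chr1:236282175-236282208, minus strand): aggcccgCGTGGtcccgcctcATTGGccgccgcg
SDF2L1 (chr22:21642106-21642132, plus strand): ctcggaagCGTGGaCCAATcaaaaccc
HERPUD1 (chr16:56931958-56932043, plus strand): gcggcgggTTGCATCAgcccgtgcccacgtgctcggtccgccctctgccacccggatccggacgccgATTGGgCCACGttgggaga
HYOU1 (chr11:119057266-119057401, minus strand): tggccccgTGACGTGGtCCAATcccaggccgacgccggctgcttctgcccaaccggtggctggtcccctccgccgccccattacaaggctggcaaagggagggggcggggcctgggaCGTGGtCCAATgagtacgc

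The libraries were similar within groups, with Pearson correlations across the tested genes of 0.970 to 0.986 among DMSO libraries, 0.981 to 0.986 among EB libraries and 0.932 to 0.956 between groups. Of the 8 markers of the labelled carcinoma line, 7 were above 1 TPM in every library (KRT8, KRT18, KRT19, SOX9, VIM, CD44 and S100A6) and KRT7 was at most 0.297. Their summed level was 8822 to 9616 TPM in DMSO and 13079 to 14270 in EB, but the markers did not move together. The means of SOX9 (149 to 57.1 TPM) and CD44 (891 to 514 TPM) were lower with EB. Those of KRT8, KRT18, KRT19, VIM and S100A6 were higher. Markers of acinar cells summed to at most 0.456 TPM, of islet cells to at most 0.0515 and of endothelial cells to at most 0.305. Leukocyte markers summed to at most 1.37 TPM, with CD14 at up to 1.37. Fibroblast markers summed to 1.71 to 2.21 TPM in DMSO and 0.848 to 1.07 in EB, with COL1A1 at up to 2.17. Of these lists, PRSS1, CPA1, INS, GCG, PTPRC, PECAM1 and DCN were listed at 0 in all 8 libraries. The share of TPM in 13 genes encoded in the mitochondrion was 17.0%, 21.1%, 21.0% and 39.0% in DMSO replicates 1 to 4 and 11.6%, 14.7%, 12.2% and 20.3% in EB replicates 1 to 4. DMSO replicate 4 stood apart by this share, and values without it are given for the genes whose call it changed and for some others. Over 11685 nuclear tested genes the log2 fold change also fell with transcript length (Spearman correlation across genes −0.48, which are not independent replicates). When these genes were placed in 10 bins of transcript length with equal numbers of genes, 42.5% of the shortest bin (276 to 1225 nucleotides) were called higher and 49.5% of the longest bin (7317 to 34626 nucleotides) were called lower. What part the mitochondrial share and the transcript length had in the results below was not tested, and the fold changes after each was accounted for are given where the call of 1 of the 42 genes changed with them.

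Of the 42 genes, 9 were higher with EB, 2 were lower and 31 did not pass the test, so that 11 were called in either direction, against 40.3% of all tested genes. Those called higher were the chaperones and folding enzymes SDF2L1, DNAJB11, MANF and PDIA6, the translocon subunits SEC61B, SEC61G and SSR4, and the degradation genes HERPUD1 and EDEM2. Those called lower were ERO1B, an oxidase of the folding machinery, and SEL1L, the adaptor of the HRD1 ubiquitin ligase. None of the 5 sensors was called, while 1 of them, EIF2AK3, had an unadjusted limma p under 0.05. A gene was called at an adjusted p under 0.05 from limma on log2(TPM + 1) with Benjamini-Hochberg adjustment over the 11725 genes that reached 1 TPM in at least 4 libraries. The 9 higher genes were 21.4% of the 42, against 15.2% of all tested genes, and the 2 lower genes were 4.76%, against 25.1%. On the log2 scale the median difference was 0.12 for the 42 genes (range −0.93 to 1.32, 29 above 0) and −0.11 for all tested genes. Every EB library lay above every DMSO library for 12 of the 42 genes (28.6%), against 16.6% of tested genes, and below for 2 (4.76%), against 20.3%. At the study's own cutoffs (a log2 fold change beyond 1.5 in either direction with a limma p under 0.05, unadjusted) none of the 42 was called in either direction, against 0.537% of tested genes higher and 1.54% lower.

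**Figure D1:**
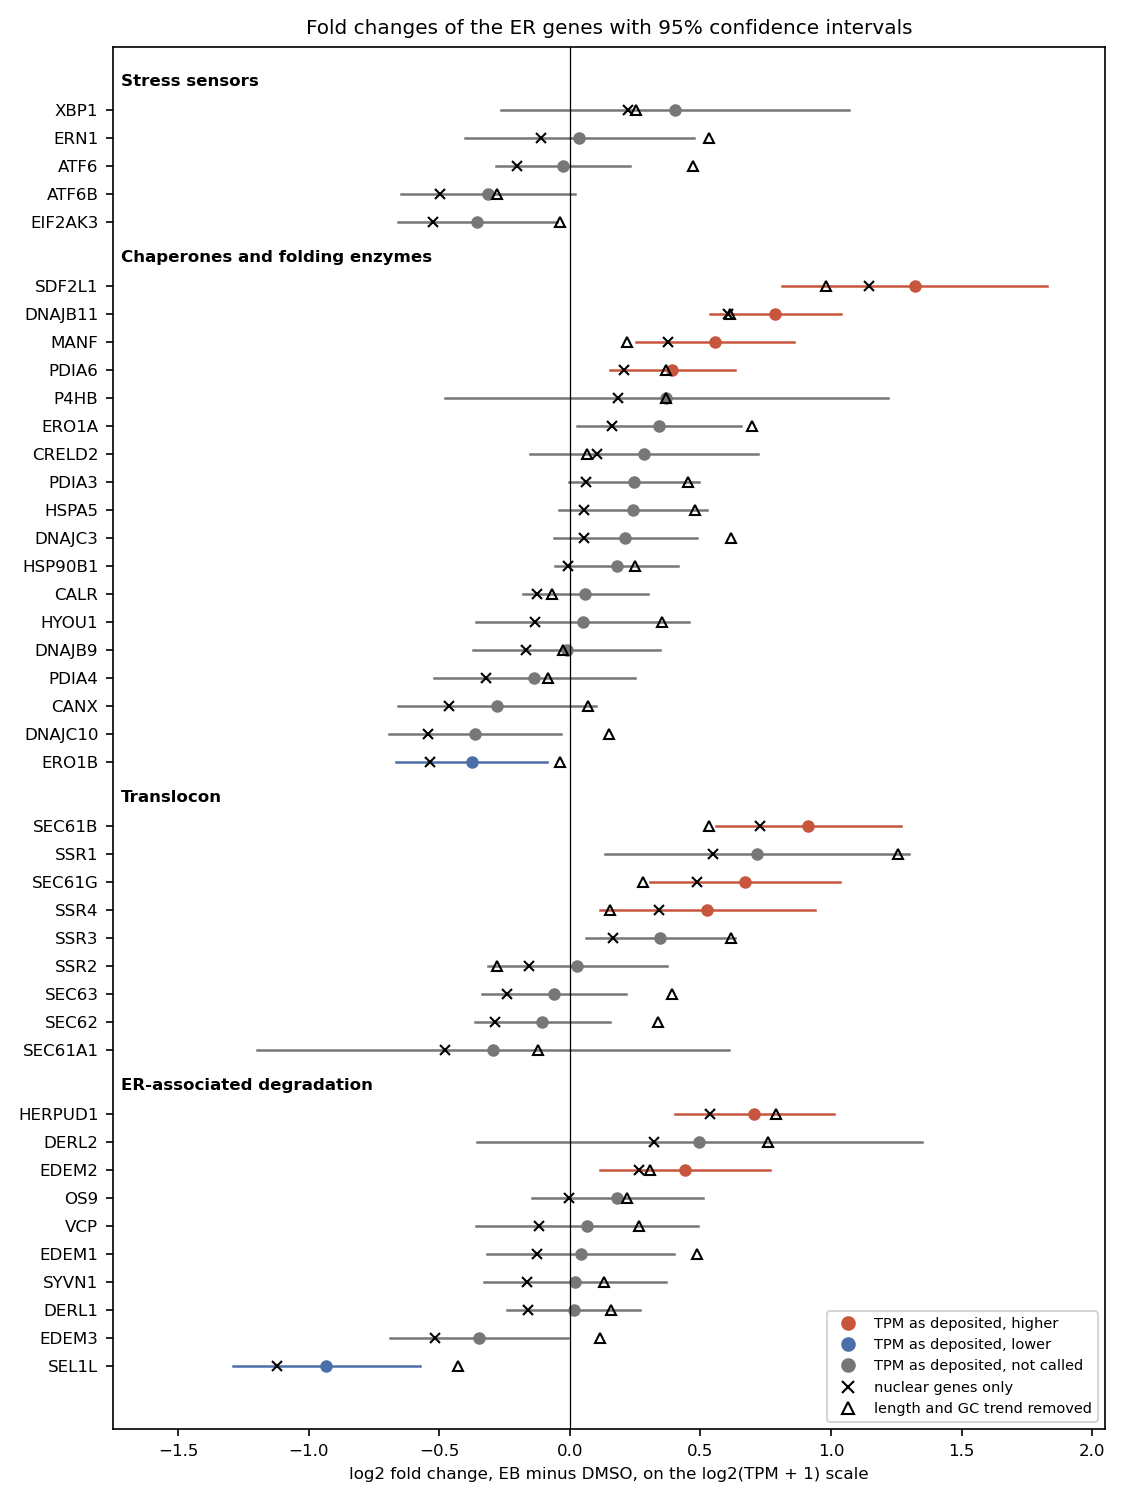
Log2 fold change (EB minus DMSO, log2 of TPM + 1) of the 42 genes by role, with circles for the limma estimate, bars for its 95% confidence interval (4 libraries per group), crosses for the estimate on nuclear genes only and triangles for that with the length and GC trend removed. The 9 genes called higher lie between 0.39 and 1.32, the 2 called lower are ERO1B at −0.38 and SEL1L at −0.93, and the sensors lie between −0.35 and 0.40.

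The count of calls differed when a joint length and GC trend was removed and when the mitochondrial genes were left out. After values were adjusted for a smooth dependence on length and GC across genes, 18 of the 42 genes were called higher, against 24.4% of the genes in that fit. In it 1 was called lower (SEL1L), against 21.8%. This adjustment also moved the median of all tested genes from −0.11 to 0.02. Standard errors changed too, from 0.12 to 0.08 for ATF6 and from 0.26 to 0.29 for SSR1. Median-ratio scaling, without that adjustment, gave 16 higher calls. What part of the 18 calls was due to length and GC alone was not tested. When TPM were rescaled to the nuclear genes only, 7 were called higher, against 12.1%, and 9 lower, against 41.4%. The median of all tested genes was then −0.28, and that of the 42 genes −0.06. The 42 genes lay above the median of genes of like transcript length in 33 cases. All 9 genes called higher were among them, which their selection for a high fold change made likely in advance. Of those 9 genes, 6 were in the shortest 2 bins of transcript length. In these bins 42.5% and 31.9% of all genes were called higher, against 15.2% of all tested genes, so short transcripts were frequent among higher calls in general. The genes called higher in every alternative fit at this adjusted p were DNAJB11, SDF2L1, SEC61B and HERPUD1, and the gene called lower in every one was SEL1L.

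**Figure D2:**
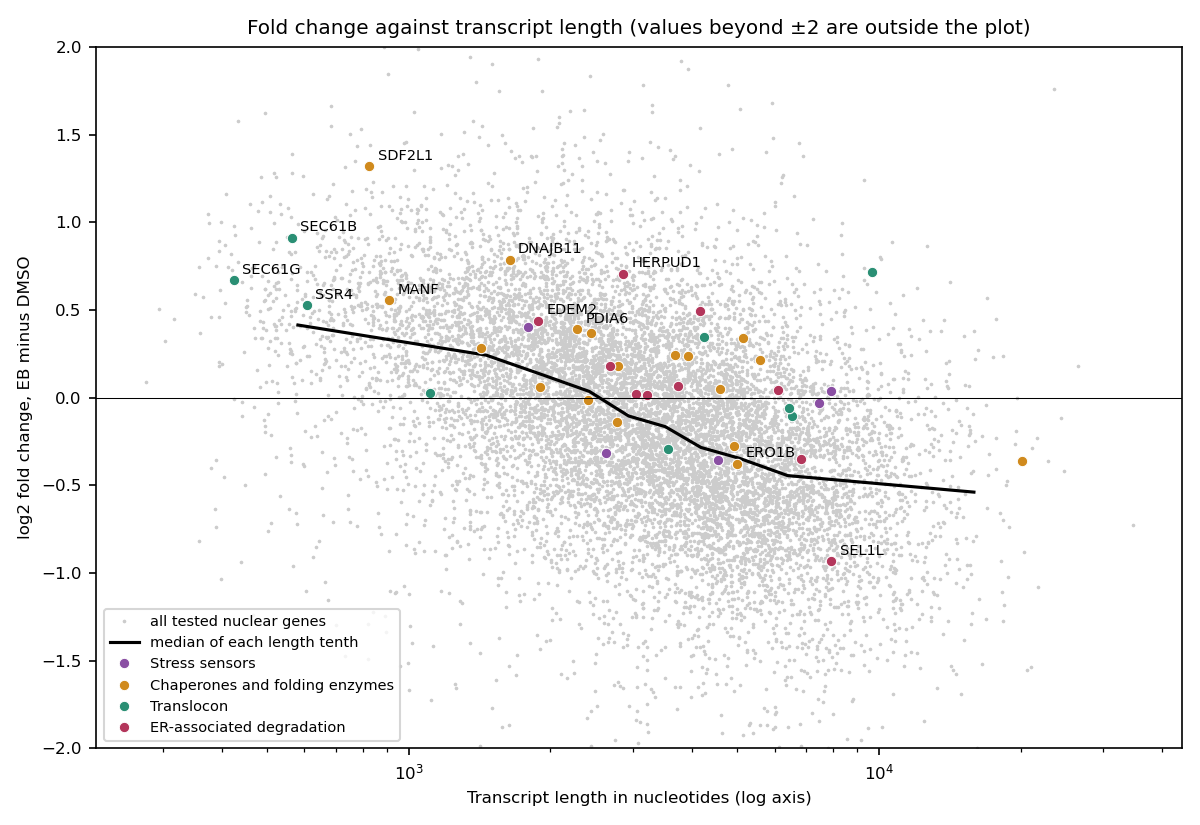
Log2 fold change (EB minus DMSO) of the 42 genes, coloured by role, against transcript length in nucleotides (log axis), over all tested nuclear genes in grey, whose median in each bin of length is drawn as a line. SDF2L1, SEC61B and SSR4 lie at the short end where the line is above 0, and SEL1L lies at the long end below it, while DNAJB11, in the second shortest bin, and HERPUD1, at an intermediate length, lie above the line.

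The sensors were the group in which no gene passed the test, against 40.3% of all tested genes called, and their log2 fold changes had a median of −0.03. ERN1 (ENSG00000178607, hg38 chr17:64039080-64130819) encodes IRE1α, the kinase and endonuclease that splices XBP1 messenger RNA. Its level was 4.41, 4.27, 4.501 and 2.47 TPM in DMSO replicates 1 to 4 and 2.76, 5.11, 4.05 and 4.19 in EB replicates 1 to 4, so the groups overlapped and 1 library in each was low. The log2 fold change was 0.04 (SE 0.20, 95% interval −0.40 to 0.48, limma adjusted p = 0.899), and −0.12 without DMSO replicate 4. XBP1 (ENSG00000100219, chr22:28794555-28800597) encodes the transcription factor whose splicing ERN1 performs, and spliced and unspliced forms cannot be told apart in a level per gene. It measured 59.0, 57.1, 34.7 and 25.1 TPM in DMSO and 85.6, 50.5, 43.9 and 48.6 in EB. The groups overlapped and both spread widely, and the log2 fold change was 0.40 (SE 0.30, interval −0.26 to 1.07, limma adjusted p = 0.303). It was 0.17 without DMSO replicate 4 and 0.19 without EB replicate 1. ATF6 (ENSG00000118217, chr1:161766298-161977574), which moves to the Golgi and is cut there to release a transcription factor, was at 13.6, 14.3, 14.6 and 12.3 TPM in DMSO and 13.6, 14.7, 12.6 and 12.8 in EB. These values were interleaved, with a log2 fold change of −0.03 (SE 0.12, interval −0.28 to 0.23, limma adjusted p = 0.866). Its sign turned with length and GC removed, where the value was 0.47 (limma adjusted p = 0.00127). Likewise ERN1, another long transcript, reached 0.53 in that fit (limma adjusted p = 0.0162).

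EIF2AK3 (ENSG00000172071, chr2:88556741-88691518), which encodes PERK, the kinase of translation factor eIF2α, was at 5.27, 5.03, 5.59 and 4.32 TPM in DMSO and 4.37, 4.19, 3.07 and 3.38 in EB. Only the lowest DMSO and the highest EB library overlapped. The log2 fold change was −0.35 (SE 0.14, interval −0.66 to −0.05), which missed the threshold (limma adjusted p = 0.0621, exact two-sided permutation p = 0.0571, n = 4 per group). Without DMSO replicate 4 it was −0.42 and passed (limma adjusted p = 0.0215), as it did on the nuclear scale (−0.52, limma adjusted p = 0.00409), whereas with length and GC removed it was −0.04. ATF6B, a relative of ATF6, had means of 72.4 ± 9.48 TPM in DMSO and 58.1 ± 8.68 in EB (SD, n = 4) and a log2 fold change of −0.31 (interval −0.65 to 0.02, limma adjusted p = 0.117). It too passed without DMSO replicate 4 (−0.39, limma adjusted p = 0.0416) and on the nuclear scale (−0.50, limma adjusted p = 0.0116).

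**Figure D3:**
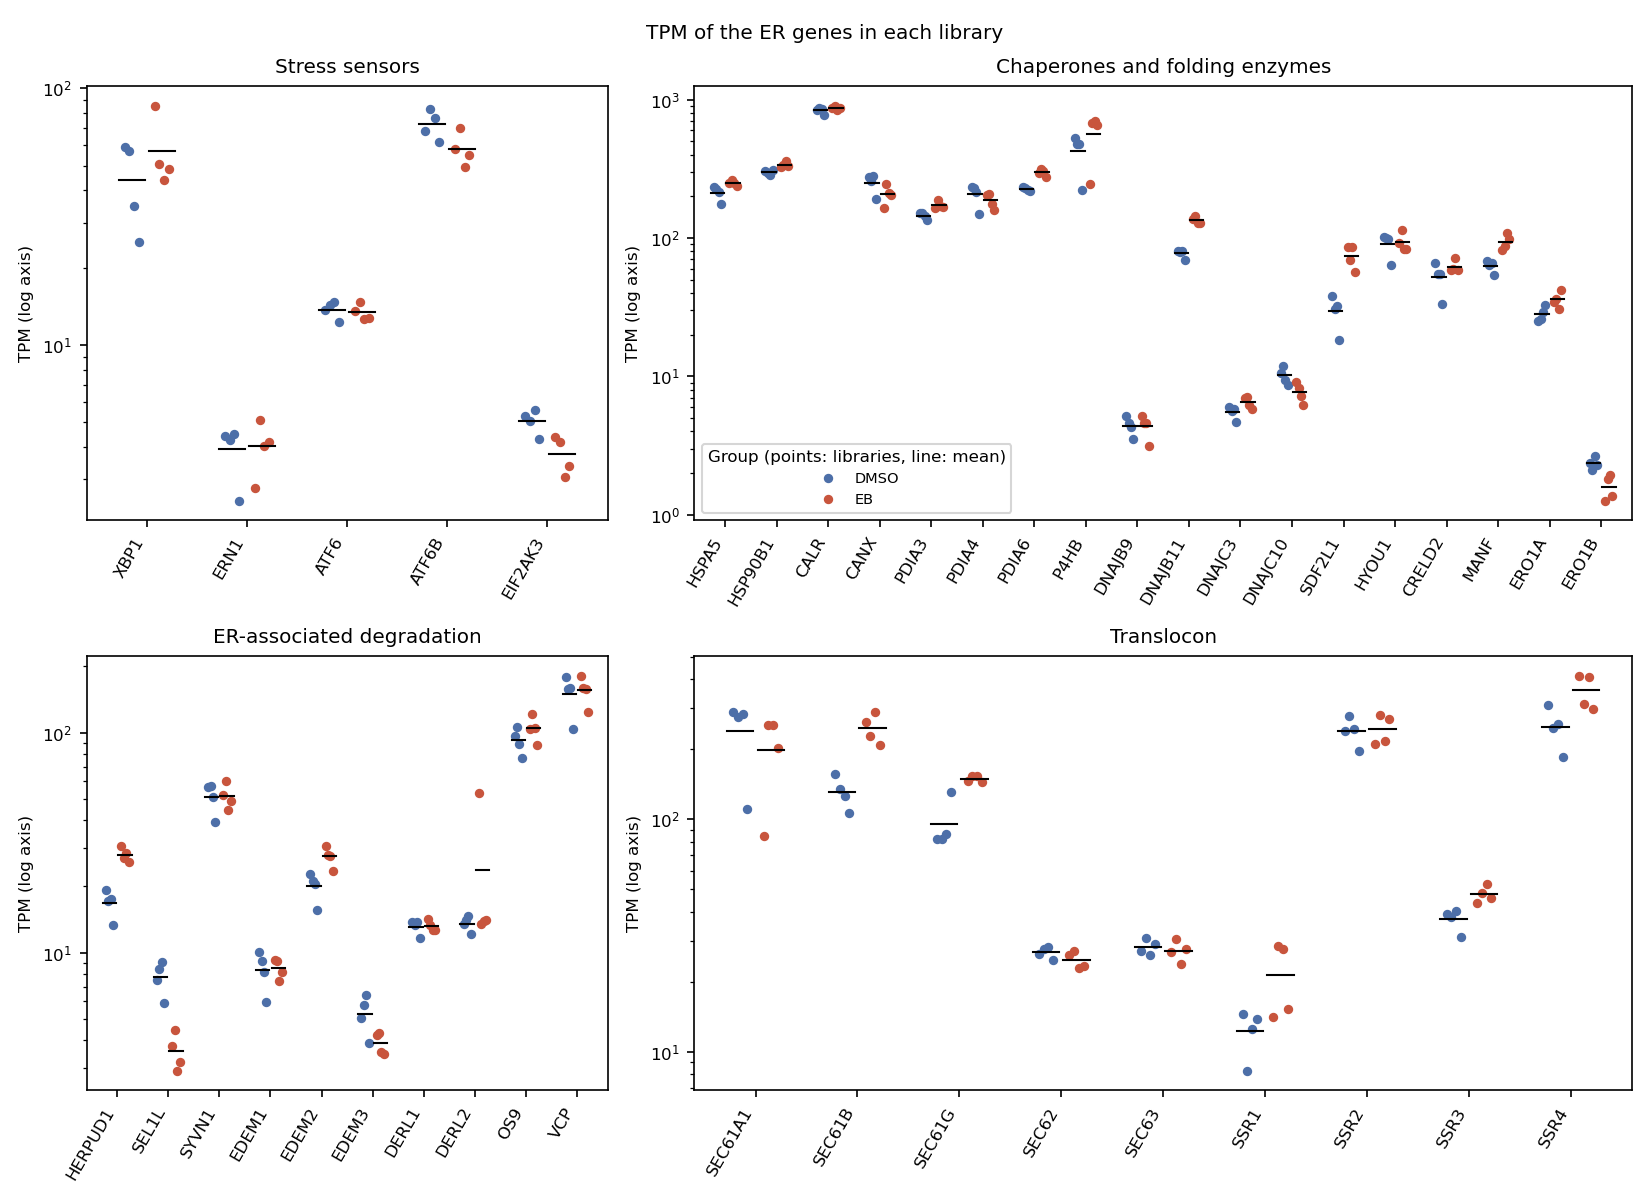
TPM (log axis) of each of the 42 genes in the 4 DMSO and 4 EB libraries, in panels by role, with a point for each library and a line for each group mean. The groups are apart for SDF2L1, DNAJB11, SEC61B, HERPUD1 and SEL1L, and single libraries stand away from their group for P4HB, SEC61A1 and DERL2.

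Among the 18 chaperones and folding enzymes, 4 rose (22.2%, against 15.2% of all tested genes), 1 fell (5.56%, against 25.1%) and 13 did not pass, and the median log2 fold change was 0.23. SDF2L1 (ENSG00000128228, chr22:21642302-21644299), which works with the BiP co-chaperone cycle, was at 38.0, 30.8, 32.3 and 18.2 TPM in DMSO and 85.8, 69.8, 85.3 and 57.1 in EB. All EB libraries were above all DMSO libraries, and the mean was 2.50-fold higher (29.8 ± 8.34 against 74.5 ± 13.8, SD, n = 4). Its log2 fold change of 1.32 (SE 0.23, interval 0.81 to 1.83, limma adjusted p = 0.0021) was the highest of the 42 genes. It was 0.98 with length and GC removed, 1.14 on the nuclear scale and 1.11 without DMSO replicate 4. DNAJB11 (ENSG00000090520, chr3:186567403-186585800) encodes a J-domain protein that delivers unfolded chains to BiP. It measured 80.2, 79.7, 80.2 and 69.6 TPM in DMSO and 136, 144, 129 and 129 in EB, again without overlap. The log2 fold change was 0.79 (SE 0.11, interval 0.54 to 1.04, limma adjusted p = 0.000875), and it stayed between 0.74 and 0.81 when any 1 library was left out.

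MANF (ENSG00000145050, chr3:51385291-51389397), a secreted ER-resident factor that binds BiP, was at 68.3, 63.5, 66.4 and 54.3 TPM in DMSO and 81.4, 87.3, 108 and 97.5 in EB. The groups did not overlap, and the log2 fold change was 0.56 (SE 0.14, interval 0.25 to 0.86, limma adjusted p = 0.0103). With length and GC removed it was 0.22 and no longer passed (limma adjusted p = 0.107). PDIA6 (ENSG00000143870, chr2:10783391-10837977), a protein disulfide isomerase, was at 234, 230.2, 223 and 219 TPM in DMSO and 294, 313, 306 and 278 in EB. These narrow, separate ranges gave a log2 fold change of 0.39 (SE 0.11, interval 0.15 to 0.63, limma adjusted p = 0.0168). The call was lost on the nuclear scale (0.21, limma adjusted p = 0.127), and without EB replicate 3 (limma adjusted p = 0.0517).

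ERO1B (ENSG00000086619, chr1:236214681-236282019), an oxidase that recharges protein disulfide isomerases, was the chaperone group's only fall. It was the lowest of the 42 genes in level, at 2.35, 2.12, 2.64 and 2.27 TPM in DMSO and 1.26, 1.80, 1.92 and 1.36 in EB. The groups did not overlap, and the log2 fold change was −0.38 (SE 0.13, interval −0.66 to −0.09, limma adjusted p = 0.0414). The call was lost without DMSO replicate 1, 2 or 3 or without EB replicate 1 or 4 (limma adjusted p up to 0.118), and with length and GC removed the value was −0.04. Its paralog ERO1A, with the same reaction, had means of 28.2 ± 3.397 TPM in DMSO and 36.0 ± 4.81 in EB (SD, n = 4) and a log2 fold change of 0.34 (interval 0.03 to 0.65, limma adjusted p = 0.0776). Without DMSO replicate 4 ERO1A passed as higher (0.41, limma adjusted p = 0.0243), as it did with length and GC removed (0.70, limma adjusted p = 0.0067). A difference between the paralogs was not tested.

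HSPA5 (ENSG00000044574, chr9:125234853-125241382) encodes BiP, the Hsp70 chaperone that holds the sensors inactive and is the usual readout of the unfolded protein response. It was at 235, 226, 214 and 175 TPM in DMSO and 251.1, 261, 250.6 and 236 in EB. Each EB library lay above each DMSO library, by as little as 235.8 against 234.6. The mean was 1.18-fold higher (212 ± 26.1 against 249.7 ± 10.5, SD, n = 4), and the log2 fold change was 0.24 (SE 0.13, interval −0.04 to 0.52). This did not pass (limma adjusted p = 0.157), although the exact two-sided permutation test gave p = 0.0286 (n = 4 per group), the smallest value that its 70 assignments allow. Without DMSO replicate 4 it was 0.15. On the nuclear scale the value was 0.06 (limma adjusted p = 0.598), and with length and GC removed it was 0.48 (limma adjusted p = 0.00104).

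With TPM as deposited, the ER Hsp90 gene HSP90B1 and the thiol oxidoreductase gene PDIA3 had the same pattern as HSPA5, separate groups without a call. On the nuclear scale the groups overlapped for both. There the log2 fold changes were −0.007 for HSP90B1 (limma adjusted p = 0.970) and 0.06 for PDIA3 (limma adjusted p = 0.654). HSP90B1 ranged from 286 to 310.5 TPM in DMSO and from 325 to 357 in EB, with a log2 fold change of 0.18 (interval −0.06 to 0.42, limma adjusted p = 0.203). PDIA3 ranged from 134 to 152 TPM in DMSO and from 163 to 187 in EB, with a log2 fold change of 0.24 (interval −0.01 to 0.49, limma adjusted p = 0.107), and PDIA3 passed as higher with length and GC removed (0.45, limma adjusted p = 0.00184). The lectin chaperone CALR was the highest of the 42 genes in both groups, at 836 ± 40.4 TPM in DMSO and 871 ± 24.3 in EB (SD, n = 4), with a log2 fold change of 0.06 (interval −0.18 to 0.30). Its membrane-bound relative CANX was at 251.4 ± 40.7 and 207 ± 33.9 TPM and −0.28 (interval −0.66 to 0.10, limma adjusted p = 0.216), and it passed as lower without DMSO replicate 4 (−0.40, limma adjusted p = 0.0403) and on the nuclear scale (−0.46, limma adjusted p = 0.0183).

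The remaining chaperone genes did not pass with TPM as deposited. P4HB, the founding protein disulfide isomerase, had 1 low library in each group (220.5 TPM in DMSO replicate 4 and 244 in EB replicate 1, against 479.7 to 696 elsewhere) and a log2 fold change of 0.37 with a wide interval of −0.48 to 1.22, which was 0.08 without DMSO replicate 4. The interval was −0.52 to 0.25 for PDIA4, another disulfide isomerase, −0.36 to 0.46 for HYOU1, a large Hsp70-type nucleotide exchange factor, and −0.15 to 0.72 for CRELD2, a secreted stress-response protein. Among the J-domain co-chaperones it was −0.37 to 0.35 for DNAJB9, −0.06 to 0.49 for DNAJC3 and −0.69 to −0.03 for DNAJC10, the last at −0.36 with a limma adjusted p of 0.0745, and at −0.43 with 0.0300 when DMSO replicate 4 was left out. Without that library the values of PDIA4, HYOU1 and CRELD2 moved from −0.14 to −0.29, from 0.05 to −0.12 and from 0.29 to 0.09. With length and GC removed DNAJC3 (0.62, limma adjusted p = 0.000215) and HYOU1 (0.35, limma adjusted p = 0.00525) passed as higher, and DNAJC10 was 0.15. On the nuclear scale PDIA4 (−0.32, limma adjusted p = 0.0323) and DNAJC10 (−0.54, limma adjusted p = 0.00415) passed as lower.

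Of the 9 translocon genes, 3 rose (33.3%, against 15.2% of all tested genes), none fell by limma (against 25.1%), also at an unadjusted p under 0.05, and 6 did not pass, and the median log2 fold change of 0.35 was the highest of the 4 roles, whose other medians were −0.03, 0.23 and 0.05. SEC61B (ENSG00000106803, chr9:99222064-99230615), the β subunit of the channel, was at 156, 135, 126 and 106 TPM in DMSO and 263, 227, 289.5 and 209 in EB. The groups did not overlap, and the log2 fold change was 0.91 (SE 0.16, interval 0.56 to 1.27, limma adjusted p = 0.00219). SEC61G (ENSG00000132432, chr7:54752250-54759974), the γ subunit, was at 81.8, 81.9, 86.5 and 131 TPM in DMSO and 146, 153, 153 and 144 in EB. All EB libraries were higher, with DMSO replicate 4 nearest to them, and the log2 fold change was 0.67 (SE 0.16, interval 0.31 to 1.04, limma adjusted p = 0.0103). It was 0.83 without DMSO replicate 4 (limma adjusted p = 0.000244), 0.49 on the nuclear scale (limma adjusted p = 0.0966) and 0.28 with length and GC removed (limma adjusted p = 0.219). SEC61A1, which encodes the pore itself, was at 289, 276, 282 and 111 TPM in DMSO and 84.5, 253, 254 and 202 in EB. Low values in DMSO replicate 4 and EB replicate 1 left its log2 fold change of −0.30 with an interval of −1.20 to 0.61 (limma adjusted p = 0.586), and it was −0.63 without DMSO replicate 4 and 0.07 without EB replicate 1.

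The SSR genes encode the translocon-associated protein complex, which sits beside the channel. SSR4 (ENSG00000180879, chrX:153793516-153798499) was at 310.2, 248, 257 and 185 TPM in DMSO and 414, 314, 409 and 298 in EB. The groups overlapped, since the highest DMSO library exceeded the lowest EB library, and the log2 fold change was 0.53 (SE 0.18, interval 0.12 to 0.94, limma adjusted p = 0.0447, exact permutation p = 0.0571). The call was lost without DMSO replicate 2, 3 or 4 or without EB replicate 1, 2 or 3 (limma adjusted p up to 0.118). SSR1 and SSR3 missed the threshold narrowly, and both passed with length and GC removed (1.26, limma adjusted p = 0.00703, and 0.62, limma adjusted p = 0.00116). SSR1 had 0.72 (SE 0.26, limma adjusted p = 0.0505), with 8.30 to 14.5 TPM in DMSO and a split of EB libraries into 14.1 and 15.3 against 28.6 and 27.6. It passed without EB replicate 1 (0.88, limma adjusted p = 0.0308) or EB replicate 4 (0.85, limma adjusted p = 0.0415). SSR3 had 0.35 (interval 0.06 to 0.63, limma adjusted p = 0.0528) and did not overlap between groups (31.3 to 40.4 TPM in DMSO, 43.5 to 52.6 in EB), and it passed without DMSO replicate 4 (0.27, limma adjusted p = 0.0489). SSR2 was at 240.1 ± 33.5 TPM in DMSO and 245 ± 36.0 in EB (SD, n = 4), with 0.03 (interval −0.31 to 0.37).

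SEC62 and SEC63, which help fully made chains enter the channel, had log2 fold changes of −0.11 (interval −0.36 to 0.15) and −0.06 (interval −0.33 to 0.21). Both have long transcripts, of 6526 and 6430 nucleotides, and their signs turned with length and GC removed, at 0.34 (limma adjusted p = 0.00375) and 0.39 (limma adjusted p = 0.0229). On the nuclear scale SEC62 instead passed as lower (−0.29, limma adjusted p = 0.0484). By contrast SEC61B, SEC61G and SSR4 have transcripts of 564, 425 and 608 nucleotides. Within the translocon the genes called higher were thus the ones with the shortest transcripts of the 9 genes, and in the same fit SEC61B kept its call (0.53, limma adjusted p = 0.00105) while SSR4 did not (0.16, limma adjusted p = 0.159).

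Among the 10 genes of ER-associated degradation, 2 rose (20%, against 15.2% of all tested genes), 1 fell (10%, against 25.1%) and 7 did not pass, with a median log2 fold change of 0.05. HERPUD1 (ENSG00000051108, chr16:56932142-56944864), a membrane protein that gathers the HRD1 ligase complex, was at 19.2, 17.2, 17.5 and 13.4 TPM in DMSO and 30.5, 26.8, 28.4 and 25.9 in EB. The groups did not overlap, and the log2 fold change was 0.71 (SE 0.14, interval 0.40 to 1.01, limma adjusted p = 0.00347). With length and GC removed it was 0.79, and on the nuclear scale 0.54. EDEM2 (ENSG00000088298, chr20:35115364-35147336), which starts the trimming of mannose that marks a misfolded glycoprotein, was at 22.8, 21.1, 20.6 and 15.6 TPM in DMSO and 30.6, 27.8, 27.6 and 23.6 in EB. All EB libraries were higher, the closest values being 22.8 and 23.6, and the log2 fold change was 0.44 (SE 0.15, interval 0.11 to 0.77, limma adjusted p = 0.0369). The call was lost without DMSO replicate 2 or 3 or without EB replicate 1, 2 or 3 (limma adjusted p up to 0.1002).

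SEL1L (ENSG00000071537, chr14:81471547-81533853) had the lowest log2 fold change of the 42 genes. It was at 7.54, 8.47, 9.11 and 5.91 TPM in DMSO and 3.78, 4.43, 2.91 and 3.18 in EB, so that every EB library lay below every DMSO library. The mean ratio was 0.461, and the log2 fold change was −0.93 (SE 0.16, interval −1.29 to −0.58, limma adjusted p = 0.0021). It remained lower with length and GC removed (−0.43, limma adjusted p = 0.00198) and on the nuclear scale (−1.12, limma adjusted p = 0.000168). SYVN1, the HRD1 ligase that SEL1L holds, was at 51.0 ± 8.32 TPM in DMSO and 51.5 ± 6.67 in EB (SD, n = 4), with a log2 fold change of 0.02 (interval −0.33 to 0.37, limma adjusted p = 0.934).

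The other degradation genes did not pass. The channel-like derlin DERL1 had a log2 fold change of 0.01 (interval −0.24 to 0.27), the glycan reader OS9 0.18 (interval −0.15 to 0.51), and the extracting ATPase VCP 0.07 (interval −0.36 to 0.49). EDEM1 had 0.04 (interval −0.32 to 0.40), and 0.49 with length and GC removed (limma adjusted p = 0.00345). EDEM3 had −0.35 (interval −0.69 to −0.01, limma adjusted p = 0.0922) and passed without DMSO replicate 4 (−0.47, limma adjusted p = 0.0104) and on the nuclear scale (−0.52, limma adjusted p = 0.00432), so with EDEM2 the 3 EDEM genes had values from −0.35 to 0.44. DERL2 was at 12.1 to 14.7 TPM in all libraries but EB replicate 1, where it was 53.4, and its log2 fold change of 0.50 (limma adjusted p = 0.323) was 0.03 without that library. EB replicate 1 was over 2 times the highest other library in 7 of the 11725 tested genes.

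Summed by role, the translocon was the set in which the groups were apart, at 829 to 1183 TPM in DMSO and 1229 to 1451 in EB. Rescaled to nuclear genes the translocon sums were 1359 to 1426 in DMSO and 1391 to 1652 in EB, where EB replicate 1 fell within the DMSO range. The chaperones summed to 2969 ± 338 TPM in DMSO and 3404 ± 279 in EB (SD, n = 4), the degradation genes to 378 ± 61.7 and 420.0 ± 56.1, and the sensors to 139.0 ± 24.9 and 136 ± 22.7. All 42 genes took 0.369% to 0.497% of the TPM in DMSO and 0.490% to 0.562% in EB. As a share of nuclear TPM alone they took 0.603% ± 0.00712 in DMSO and 0.620% ± 0.0453 in EB (SD, n = 4), a difference smaller than the spread of the EB libraries.

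**Figure D4:**
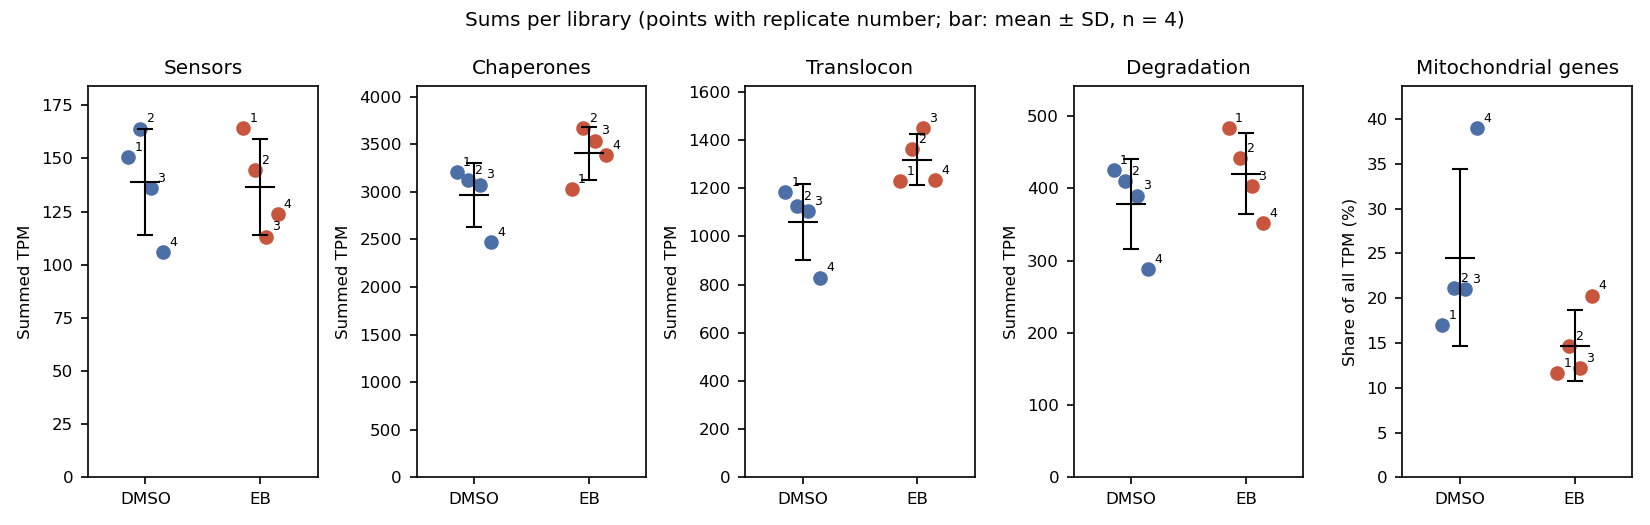
Summed TPM of the genes of each role, and the share of all TPM in mitochondrial genes (%), in the 4 DMSO and 4 EB libraries, with a numbered point for each library and bars for the mean ± SD. The translocon sums lie apart on this scale, at 829 to 1183 in DMSO and 1229 to 1451 in EB, but overlap when rescaled to nuclear genes (1359 to 1426 and 1391 to 1652), whereas the sums of the sensors overlap at 106 to 164 and 113 to 164.

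Set beside the promoters shown above, 30% of genes with an ERSE or ERSE-II and 26.7% of those without were called in either direction, against 40.3% of all tested genes. Of the 10 genes with either element, 2 were called higher (SDF2L1 and HERPUD1, both with ERSE-II), 1 lower (ERO1B, with ERSE) and 7 were not called, with a median log2 fold change of 0.21. Of the 30 without either, 7 were called higher and 1 lower, with a median of 0.05. The order of the medians turned with length and GC removed, at 0.25 with either element and 0.29 without. None of the 7 genes with ERSE was higher by limma, also at an unadjusted p under 0.05, HSPA5, XBP1 and CALR among them. In alternative fits HSPA5 passed as higher with length and GC removed (0.48) and with median-ratio scaling (0.37, limma adjusted p = 0.00463), CRELD2 with median-ratio scaling (0.42, limma adjusted p = 0.0266) and HSP90B1 without a filter (0.18, limma adjusted p = 0.0359). In the other direction CANX passed as lower with quantile scaling (−0.50, limma adjusted p = 0.0106), on the nuclear scale and without DMSO replicate 4. The lower call of ERO1B was lost in several settings, among them quantile scaling (−0.10, limma adjusted p = 0.578). A match in these letters describes the sequence only and says nothing of a factor's binding.

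Other genes of the same compartment were taken from 5 lists, of 153 genes in all, of which 147 could be tested. In these lists 45 genes rose (30.6%, against 15.2% of all tested genes) and 20 fell (13.6%, against 25.1%), with a median log2 fold change of 0.13. With length and GC removed 52 rose and 24 fell, against 24.4% and 21.8% of all genes in that fit, and on the nuclear scale 37 rose and 42 fell, against 12.1% and 41.4%. Of the genes named below, TMEM258, MAGT1, TRAM2 and UBXN8 lost their call with length and GC removed. Of 37 tested genes of other folding factors, 13 rose (35.1%) and 6 fell (16.2%). The rises with the largest fold changes were PRDX4, an ER peroxidase that oxidises disulfide isomerases (151 ± 20.03 to 333 ± 31.6 TPM, SD, n = 4, log2 fold change 1.14, limma adjusted p = 0.000397), and the sulfhydryl oxidase QSOX1 (0.74, limma adjusted p = 0.0208). The falls with the largest were the disulfide isomerase PDIA2 (−0.75, limma adjusted p = 0.0265) and the prolyl isomerase FKBP11 (−0.71, limma adjusted p = 0.0204).

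Of 20 tested genes of N-glycan attachment and glycan-based quality control, 6 rose (30%, against 15.2% of all tested genes) and 1 fell (5%, against 25.1%). The oligosaccharyltransferase subunits KRTCAP2 (146 ± 12.8 to 271 ± 23.7 TPM, SD, n = 4, log2 fold change 0.89, limma adjusted p = 0.000805) and TMEM258 (0.54, limma adjusted p = 0.0431) were highest, and MAGT1, a subunit with oxidoreductase activity, was the fall (−0.72, limma adjusted p = 0.0260). Of 28 genes of targeting, signal peptide cleavage and membrane insertion, 9 rose (32.1%, against 15.2%) and 4 fell (14.3%, against 25.1%). SEC11C, a catalytic subunit of signal peptidase, went from 19.8 ± 3.56 to 58.5 ± 2.43 TPM (SD, n = 4, log2 fold change 1.53, limma adjusted p = 0.000121), and EMC7 of the membrane insertase complex had 0.95 (limma adjusted p = 0.000331). TRAM2, an accessory of the translocon, had −0.56 (limma adjusted p = 0.0170), and SRP72 of the signal recognition particle had −0.47 (limma adjusted p = 0.0229).

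Of 39 tested genes of other degradation factors, 7 rose (17.9%, near the 15.2% of all tested genes) and 6 fell (15.4%, against 25.1%). SELENOS, a selenoprotein that recruits VCP to the ER, went from 21.8 ± 2.62 to 42.5 ± 3.25 TPM (SD, n = 4, log2 fold change 0.94, limma adjusted p = 0.000648), and UBXN8, another VCP tether, had 0.69 (limma adjusted p = 0.0378). The glycoprotein-binding ubiquitin ligase subunit FBXO2 had −0.84 (limma adjusted p = 0.0127), and HERPUD2, the paralog of HERPUD1, had −0.78 (27.3 ± 1.86 to 15.6 ± 2.24 TPM, SD, n = 4, limma adjusted p = 0.00204).

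Of 23 tested genes that act downstream of or beside the sensors, 10 rose (43.5%, against 15.2% of all tested genes) and 3 fell (13.0%, against 25.1%). Their median difference on the log2 scale was 0.36. The rises with the largest fold changes were DDIT3, which encodes the transcription factor CHOP (11.2 ± 1.11 to 45.0 ± 17.4 TPM, SD, n = 4, log2 fold change 1.85, limma adjusted p = 0.000591), and TRIB3, a pseudokinase induced by ATF4 and CHOP (1.64, limma adjusted p = 0.00366). The falls with the largest were TXNIP, a thioredoxin-binding protein (−1.37, limma adjusted p = 6.88e-05), and MBTPS1, the Golgi protease that makes the first cut in ATF6 (−0.62, limma adjusted p = 0.0202). DDIT3 had a larger log2 fold change than any of the 42 genes. It is the largest rise of a list chosen with earlier results of these data known, so this is description only. No sensor passed the test with TPM as deposited, against 40.3% of all tested genes called. With length and GC removed 2 of the 5 sensors were called higher, and on the nuclear scale 2 were called lower.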

How the data were processed

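RNA from PANC-1 cells was sequenced in 4 DMSO and 4 EB libraries (10 μM, 24 h) with an mRNA library kit. The authors deposited TPM per gene, normalized within each library, which were used as deposited. Reads were trimmed and mapped with CLC Genomics Workbench, and further tools including HISAT2 and StringTie were named. Both GrCM38 and hg38 are given as the genome, all identifiers were human, and whether counting used strand or how reads shared with pseudogenes were treated is not given in the sources used here. The control columns carry the letter C and the EB columns the letter H, which were matched to the only groups in the labels. Methods speak of 4 biological replicates and of triplicates. No counts were used here, so sequencing depth, and with it the counting error of each value, is unknown.

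Symbols, positions and transcript lengths came from GENCODE release 44 on hg38 (20148 of 20263 identifiers matched, 115 did not), and promoters from RefSeq. Log2(TPM + 1) of the 11725 genes at 1 TPM or more in at least 4 libraries was fitted with limma 3.58.1 in R 4.3.3 (lmFit, eBayes), with Benjamini-Hochberg adjustment over all of them. The limma step was tested on simulated data with far fewer changed genes than were called here. That test does not tell how many true changes were missed among the 42 genes. Exact two-sided permutation tests used all 70 assignments. Fold changes on this scale understate those of low genes. The genes and lists were chosen with earlier results of these data known. All 42 genes are named. Libraries are listed individually for up to 6 called genes per role and for HSPA5, XBP1, ERN1, ATF6 and EIF2AK3. Of each further list the 2 largest rises and falls at an adjusted p under 0.05 are named. Values per library of other genes (SEC61A1, SSR1) were added after they were seen. Alternatives were the pseudocount, the filter, between-library scaling (median ratio, quantile, nuclear genes only), removal of length and GC trends, a variance trend, a replicate block, thresholds, and each library left out. Protein sequences were not analysed here.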

Additional observations from a re-analysis of the deposited data

Results flagged for a closer look

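Dixon's test was applied to 84 groups of 4 libraries (42 genes in each of 2 groups). In 10 groups, the gap of 1 library to the nearest other library was too large a part of the group's range. Chance flags about 1 in 20 independent groups. These groups share the same 8 libraries and are not independent, so the count is description only. DMSO replicate 4, the library with the mitochondrial share of 39.0%, was the one that stood apart in 6 of the 10 flagged groups. It was low for ERN1 (2.475 TPM, others 4.271 to 4.501), P4HB (220.5, others 479.7 to 530.9), DNAJB11 (69.58, others 79.73 to 80.25), HYOU1 (63.19, others 98.96 to 101.1) and SEC61A1 (110.8, others 276.3 to 289.1), and high for SEC61G (130.9, others 81.83 to 86.48). EB replicate 1 stood apart in 3, being high for XBP1 (85.57 TPM, others 43.86 to 50.52) and DERL2 (53.35, others 13.52 to 14.02) and low for P4HB (244.3, others 650.1 to 695.6). EB replicate 3 was high for CRELD2 (71.19 TPM, others 58.29 to 59.26).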

How the results depend on the processing

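Over 17 alternative settings, 581 of 709 gene values kept their direction and their side of the threshold, 30 lost a call and 48 gained one. In 47 further cases over 18 genes the sign changed while the gene was called in neither fit. The 3 values that reversed with a call were those of ATF6 (0.47), SEC62 (0.34) and SEC63 (0.39), all with length and GC removed. As reported, 9 genes were higher and 2 lower. The count of higher calls was 16 with median-ratio scaling, 18 with length and GC removed and 0 at the study's cutoffs. The count of lower calls was 1 with a filter of 5 TPM (37 of the 42 genes remained), 1 with median-ratio scaling, 4 with quantile scaling, 9 on the nuclear scale, 1 with length and GC removed, 0 at the study's cutoffs and 1 at an added absolute log2 fold change over 0.5. With each library left out in turn it ranged from 6 to 10 for higher calls and from 1 to 7 for lower calls, the 7 being without DMSO replicate 4 and the 1 without DMSO replicate 1, 2 or 3 or EB replicate 1 or 4. Why these counts moved was not tested. Whether libraries of the same number were handled together is not stated. Deviations of same-numbered libraries correlated at 0.18, 0.05, −0.09 and 0.28 for replicates 1 to 4. Replicates 1 and 4 correlated best with their own number, while replicates 2 and 3 did not. The mitochondrial share had the same order in both groups, rising through replicates 1, 3, 2 and 4. The main fit used no pairing, and an effect shared by replicate number was not tested. With a replicate block 11 genes were called higher and 3 lower. With 4 libraries per group and no counts, what depth limits could not be assessed, least of all for ERO1B, EIF2AK3 and SEL1L at under 10 TPM.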
